A study of Mus musculus with 4 samples.

Results

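The loci of 3 receptor protein tyrosine phosphatase genes, Ptprm, Ptprd and Ptprs, were examined for chromatin contacts in cortical interneurons of the mouse, comparing those that make somatostatin (SST) with those that make vasoactive intestinal peptide (VIP). A contact was a member when at least 1 of its paired anchors overlapped a locus window by 1 bp. In build mm9 the windows were chromosome 17 from 66650000 to 68000000 for Ptprm, chromosome 4 from 74650000 to 77900000 for Ptprd with its flank, and chromosome 17 from 56450000 to 56650000 for Ptprs with the adjoining end of Kdm4b, a gene for a histone demethylase. Members numbered 178 of 15011 listed interactions, namely 70 of 8278 in the SST list (0.846%) and 108 of 6733 in the VIP list (1.60%). The windows were proposed because earlier counts of these lists differed there, so all counts, distances and links at the loci are descriptions, and no test was made on them.

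The SST nuclei came from mice of genotype Sst-cre; Sun1 and the VIP nuclei from mice of genotype Vip-cre; Sun1, both on a C57BL/6 background, with cortex taken in adults. Sun1 is a protein of the nuclear envelope, and a tagged form switched on by Cre lets nuclei of the driver's cells be captured by the INTACT method. Cre marks every cell that has used its driver, so each capture is only as specific as the Sst or Vip driver. HiChIP is an assay of chromatin contacts that keeps those carrying a precipitated mark, here H3K27ac, an acetylated histone found at active promoters and enhancers. GEO describes 4 samples, 2 per cell type, and the single list per cell type used here is attached to replicate 1. The labels do not say whether a list pools animals or replicates, and no spread between animals can be stated. Depth is unknown, so a contact absent from a list is only known not to have been called, and its absence from the cells was not tested. Counts carry exact 95% Poisson intervals and shares carry exact Clopper-Pearson intervals, while medians carry order-statistic intervals. All of them express counting error alone and take links as independent, which links with a common anchor are not. Gene positions in mm9 were not used here, so the cell types were not checked at their marker genes and anchors are named by coordinate.

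Receptor tyrosine phosphatases pair an extracellular part built of immunoglobulin-like and fibronectin type III repeats with intracellular phosphatase domains that remove phosphate from tyrosines. Ptprm encodes the mu phosphatase, which binds its own kind on neighbouring cells and sits at cell contacts. Ptprd and Ptprs encode the delta and sigma phosphatases of the LAR family, presynaptic adhesion proteins that bind postsynaptic partners and help to organise synapses, and sigma is also a receptor for proteoglycans in axon growth. In the RefSeq gene table of GRCm38.p6 the genes differ greatly in length, at 688 kb for Ptprm, 2271 kb for Ptprd and 64.1 kb for Ptprs. Their surroundings differ as well. Within 500 kb of the gene that table has 0 other protein-coding genes for Ptprd, 6 for Ptprm and 42 for Ptprs. The neighbours are Dmac1 and Tyrp1 for Ptprd, Themis3 and Lrrc30 for Ptprm, and Kdm4b and Znrf4 for Ptprs.

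Promoter sequences show the base composition at the start of the genes whose loci carry the contacts. The RefSeq promoter table holds Ptprm and Ptprs, with a pair of start sites for Ptprs, and the 250 bases before a start are printed 5′ to 3′ on the minus strand with GRCm38.p6 positions, which cannot be set beside the mm9 positions of the anchors. Capitals mark CACGTG, an E-box that reads the same on both strands.
Ptprm, chr17:67354460-67354709: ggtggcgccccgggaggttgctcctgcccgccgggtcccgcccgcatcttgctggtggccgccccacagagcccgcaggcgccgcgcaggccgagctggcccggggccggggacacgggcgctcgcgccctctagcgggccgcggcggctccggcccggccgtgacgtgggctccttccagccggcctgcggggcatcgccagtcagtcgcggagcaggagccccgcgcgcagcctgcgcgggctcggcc
Ptprs, chr17:56476481-56476730: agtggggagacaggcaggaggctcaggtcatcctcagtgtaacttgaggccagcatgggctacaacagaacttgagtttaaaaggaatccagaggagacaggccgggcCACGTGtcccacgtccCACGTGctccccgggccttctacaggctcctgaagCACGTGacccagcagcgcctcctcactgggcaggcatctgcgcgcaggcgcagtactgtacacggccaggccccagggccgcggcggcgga
The Ptprm window was 81.2% G or C and the Ptprs window 64.0%, against a median of 52.4% over all 32851 promoter windows of this length. CACGTG occurred 3 times in this Ptprs window and was absent from the Ptprm window and from the window at the other Ptprs start. Of all windows, 6.02% held it at least once and 0.0609% at least 3 times. GATC, the site cut by MboI, the enzyme used to fragment chromatin for this assay, was found in none of these windows and in 41.9% of all. Anchors are several kb wide, so the lack of a site in 250 bases says nothing about capture at an anchor.

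The 3 loci differed in which cell type had listed contacts. At Ptprm the SST list held 53 interactions and the VIP list 0, which is 6.40 per 1000 SST interactions (Poisson interval 4.80 to 8.37) and allows up to 0.446 per 1000 in VIP when a count of 0 is taken as at most 3. Against that floor of 3 counts the SST value was at least 14.4-fold higher. The upper Poisson limit of the VIP count is slightly above the floor, at 3.69 counts or 0.548 per 1000. At Ptprd the direction was opposite, with 75 VIP interactions and 1 SST interaction, or 11.1 (8.76 to 14.0) and 0.121 (0.00306 to 0.673) per 1000. Their ratio was 92.2 with a counting interval of 16.1 to 3690. Ptprs had contacts in both lists, 33 in VIP and 16 in SST, or 4.90 (3.37 to 6.88) and 1.93 (1.10 to 3.14) per 1000, a ratio of 2.54 (1.36 to 4.93).

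**Figure D1:**
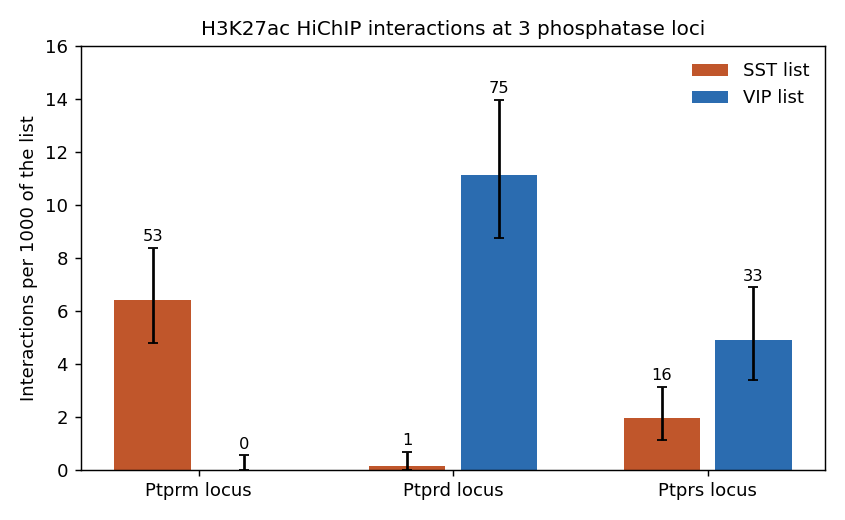
Interactions per 1000 of each list at the Ptprm, Ptprd and Ptprs loci; bars are the SST and VIP lists, error bars are exact 95% Poisson intervals, and the numbers above them are interactions. The Ptprm locus has SST interactions only, the Ptprd locus has 75 interactions in VIP and 1 in SST, and both lists contribute at Ptprs.

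These differences were set against genome tiles of the same length that held at least 20 interactions. Of 303 tiles of 1.35 Mb, 16.5% drew at most 10% of their interactions from VIP, as Ptprm did. Of 260 tiles of 3.25 Mb, 4.23% drew at most 10% from SST, as Ptprd did. Of 383 tiles of 0.2 Mb, 30% were at least 2-fold higher per 1000 in VIP, as Ptprs was. Because the loci were chosen by these counts, nothing is read from their place among the tiles. In absolute number, 23 of the 1074 tiles of 1.35 Mb with any interaction had 53 or more in SST, 9 of 611 tiles of 3.25 Mb had 75 or more in VIP, and 35 of 3316 tiles of 0.2 Mb had 33 or more in VIP.

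Ptprm lay in a long stretch of chromosome 17 that was empty in the VIP list. No VIP anchor lay between 56906680 and 69810851, a length of 12.9 Mb, and the VIP list had 21 stretches at least that long among 4830 between neighbouring anchors. The lower end of this stretch, 56906680, is the far end of the longest upward contact of the Ptprs locus in VIP. In SST the same stretch held 54 interactions, of which 53 were the Ptprm members.

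Within the Ptprm window the 53 SST interactions joined 21 anchors into a single connected network. Distances between anchor midpoints ran from 32.8 kb to 952 kb with a median of 283 kb (173 to 343), and 10 interactions exceeded 500 kb. Both anchors lay inside the window for 51 interactions, and the other 2 reached anchors below it, the farther of which started 92.5 kb before the window. The shortest interaction joined 66669389 to 66682050 with 66684149 to 66732916. The longest joined 67014404 to 67040529 with 67975259 to 67983775.

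The most connected Ptprm anchor, 67446395 to 67493976, was 47.6 kb wide and took part in 14 interactions, 26.4% of the locus. Its partners lay mostly on the lower side, 12 of the 14, and the median distance to all 14 was 351 kb. The anchor at 67686941 to 67706917 had 12 interactions at a width of 20.0 kb, 11 of them to lower positions. The median distance of all 12 was 486 kb. The anchor at 67354433 to 67387250 had 11, of which 9 led to lower positions. All 3 of the busiest anchors lie near the upper end of the locus, with few anchors above them, so no preference of direction is read from this. At least 1 of them was involved in 34 of the 53 interactions.

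The upper part of the Ptprm locus was densely linked and the lower part sparsely. Every pair was linked among 7 anchors spread over 560 kb, from 67146771 to 67706917, which included the 3 busiest and was the largest fully linked set of the locus. Below it, the anchor at 66684149 to 66732916 had 9 interactions, and all 6 anchors of the locus that had only 1 interaction were linked to it; this anchor was singled out after its values were seen. It reached the upper set through 67354433 and 67446395, the latter at 762 kb. The widest space between neighbouring anchors, 268 kb, lay between 67706917 and 67975259.

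At Ptprd the contacts of VIP nuclei likewise formed an extended network. The 75 VIP interactions joined 27 anchors, again as a single network, and every anchor lay inside the window. Distances ran from 22.7 kb to 977 kb with a median of 349 kb (275 to 431), and 24 interactions exceeded 500 kb. The shortest joined 75463821 to 75480729 with 75481294 to 75508689, and the longest joined 74668872 to 74687591 with 75635542 to 75674082. The anchors ran from 74668872 to 76462054, and the remaining 1438 kb of the window held no anchor in either list. The next VIP anchor beyond lay at 80553380, 4.09 Mb away, and no SST interaction touched that space. On the lower side the nearest VIP anchor ended at 53457524, 21.2 Mb below the locus, and 37 SST interactions lay in between.

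A single anchor carried much of the Ptprd network. Few anchors of the locus lie above the anchor at 76061428 to 76110770, so no preference of direction is read from its partners. This anchor, 49.3 kb wide, took part in 22 VIP interactions, 29.3% of the locus, and 20 of its partners lay at lower positions, up to 873 kb away. Without it, 9 anchors would have no listed link in the locus. The next busiest anchors were tied at 13 interactions. They lay at 75201301 to 75225467, 75481294 to 75508689, 75583908 to 75624319 and 75635542 to 75674082, and were between 24.2 and 40.4 kb wide. The first of them sent 10 of its 13 contacts to higher positions. The median distance over all its contacts was 417 kb, whereas the last had a median of 171 kb.

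The 4 lowest Ptprd anchors, between 74668872 and 74889431, stood apart by 312 kb from the next. They had no link among themselves and 15 links to 6 anchors that started between 75201301 and 75683363. None reached the busiest anchor. That anchor is more than 1 Mb away from them, and neither list held an interaction beyond 999.7 kb. The largest fully linked sets of the locus had 7 anchors, of which there were 4, with 10 anchors in all and 4 common to every set. At Ptprm the corresponding number was also 7, and at Ptprs it was 4 in each list.

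The only SST interaction at Ptprd joined 76024133 to 76039444 with 76067261 to 76100837, a distance of 52.3 kb. It was also listed in VIP, between 76030397 to 76041917 and the busiest anchor at 76061428 to 76110770, at 49.9 kb. The SST anchor that overlapped the busiest VIP anchor thus had 1 interaction where VIP had 22. No other VIP anchor of the locus was overlapped by an SST anchor.

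**Figure D2:**
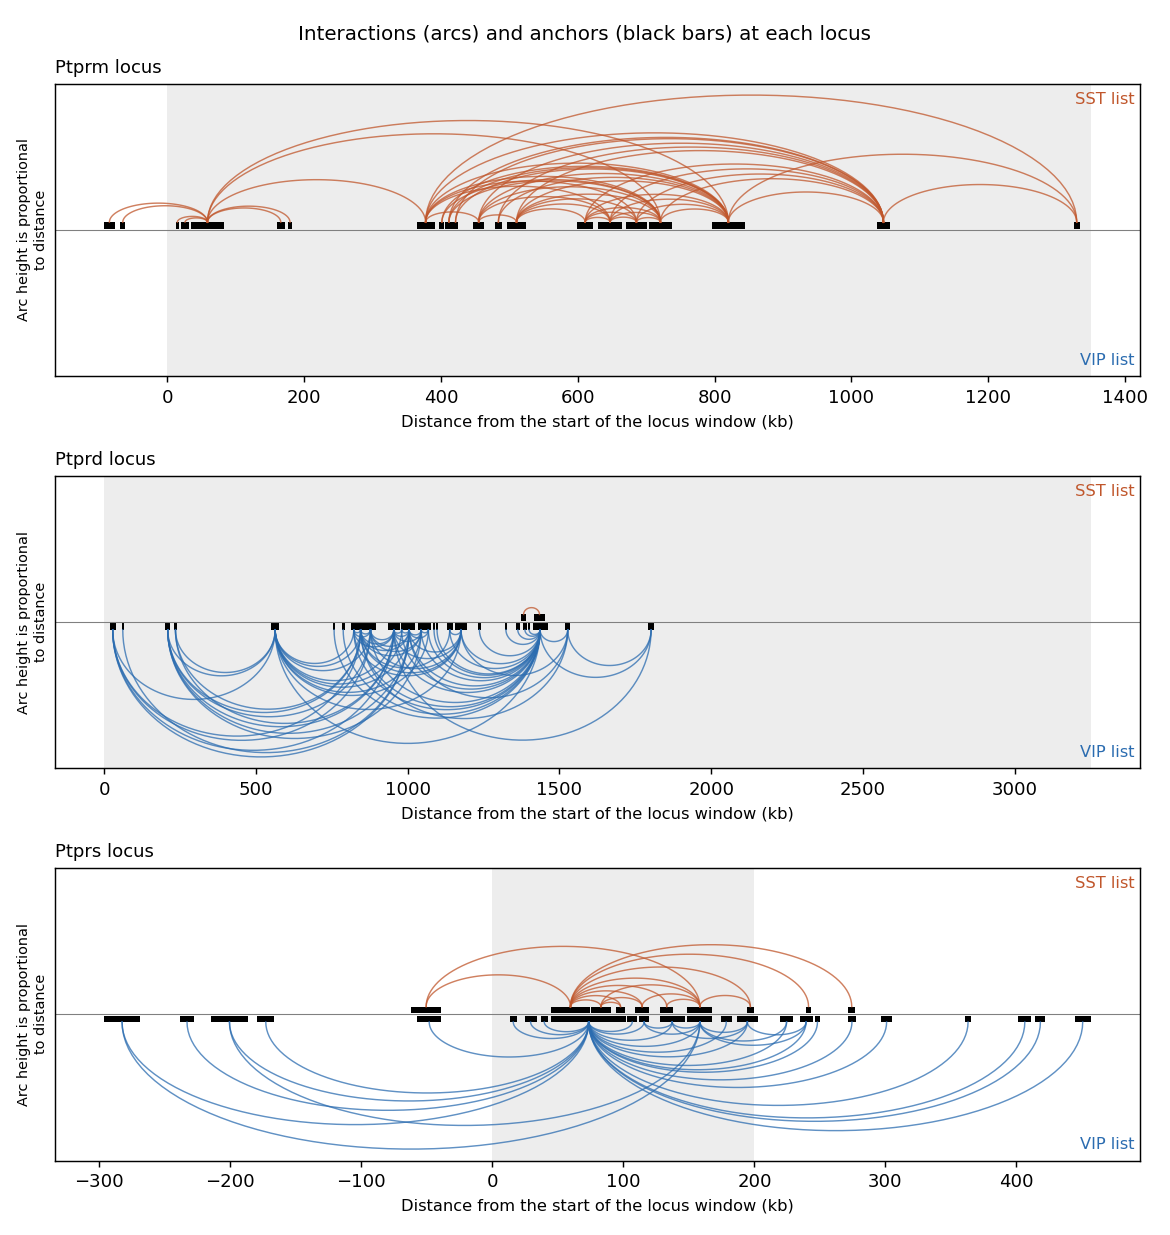
Every member interaction as an arc between the midpoints of its anchors, with anchors as black bars; the horizontal axis is the distance in kb from the start of each locus window (shaded), SST arcs point up, VIP arcs point down, and arc height is proportional to distance. Ptprm shows SST arcs alone, Ptprd shows a VIP mesh in the lower part of its window with 1 SST arc, and Ptprs shows VIP arcs fanning out on both sides of a single wide anchor over a smaller SST set.

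Ptprs differed from the other loci in that each list held several contacts there, and in that more of the contacts left the window. In VIP, 33 interactions joined 24 anchors, and 19 of them had an anchor outside the 200 kb window. In SST, 16 interactions joined 10 anchors, and 4 had an anchor outside. With both anchors inside the window the counts were 14 in VIP and 12 in SST, and the difference (SST minus VIP) was -0.630 per 1000 compared with -2.97 when every member was counted. Much of the VIP excess at Ptprs was thus made of contacts that left the window.

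The Ptprs window also holds the adjoining end of Kdm4b, and its anchors were not assigned to genes. Its VIP contacts ran mainly through an anchor at 56494730 to 56552368, 57.6 kb wide, which took part in 23 of the 33 interactions (69.7%). It had 8 partners at lower and 15 at higher positions, between 33.2 and 377 kb away. In SST that stretch was divided into 3 anchors. The first, 56494730 to 56524547, had 9 interactions, the second, 56525531 to 56540241, had 4, and the third, 56544353 to 56551289, had 2. The farthest contact of the first SST anchor was at 215 kb.

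A further anchor had the same bounds in both lists, 56598783 to 56617978, and took part in 6 SST and 8 VIP interactions. In VIP it came after the 57.6 kb anchor in number of contacts, followed by 56577601 to 56596906 and 56636751 to 56652517 with 4 each. The longest VIP interaction of the locus, 441 kb, joined it to 56153747 to 56181088, and the shortest, 21.1 kb, joined it to 56577601 to 56596906. In SST the longest, 215 kb, led from 56494730 to 56524547 to the anchor at 56721581 to 56727004. The shortest SST interaction, 14.9 kb, lay between 56525531 to 56540241 and 56544353 to 56551289, inside the stretch that is a single anchor in VIP.

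Most SST contacts of the Ptprs window had a VIP counterpart by the rule of 1 bp. VIP anchors covered 76.9% of this window, so an overlap of 1 bp came easily there. The window was chosen by counts of these lists as well, so nothing is read from the shares beside the whole lists. All 10 SST anchors of the locus were overlapped by a VIP anchor, against 36.9% of the whole SST list, and 12 of its 24 VIP anchors by an SST anchor, against 43.5% of VIP anchors overall. Of 16 SST interactions, 12 had a VIP counterpart, 75.0% (47.6 to 92.7%), against 21.4% of the whole SST list. Of 33 VIP interactions, 11 had an SST counterpart, 33.3% (18.0 to 51.8%), against 25.8% of the whole VIP list. Counting anchors within 10 kb as matching raised these shares to 93.8% in SST and 51.5% in VIP, and requiring identical anchors took both to 0%. Of the 22 interactions found in VIP only, 15 involved the 57.6 kb anchor. By anchors, 8 had both anchors overlapped by SST anchors and 14 had 1. Their median distance was 201 kb, compared with 63.7 kb for the 11 shared ones, and 11 of the 22 exceeded 200 kb.

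Each of the 4 interactions found in SST only had both anchors overlapped by VIP anchors. All but 1 of them joined anchors that lie inside the single 57.6 kb VIP anchor, so no VIP interaction could match them. The remaining 1 joined 56387881 to 56411089 with 56598783 to 56617978. When the anchors of both lists were merged wherever they overlapped, a setting added after seeing the data, Ptprs had 11 distinct SST links and 32 VIP links. Of these, 10 were common to both lists, 90.9% of the SST links and 31.2% of the VIP links. At Ptprm and Ptprd the other list held 0 and 1 interactions, so sharing there was fixed by the counts that chose the loci and is not a separate result.

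**Figure D3:**
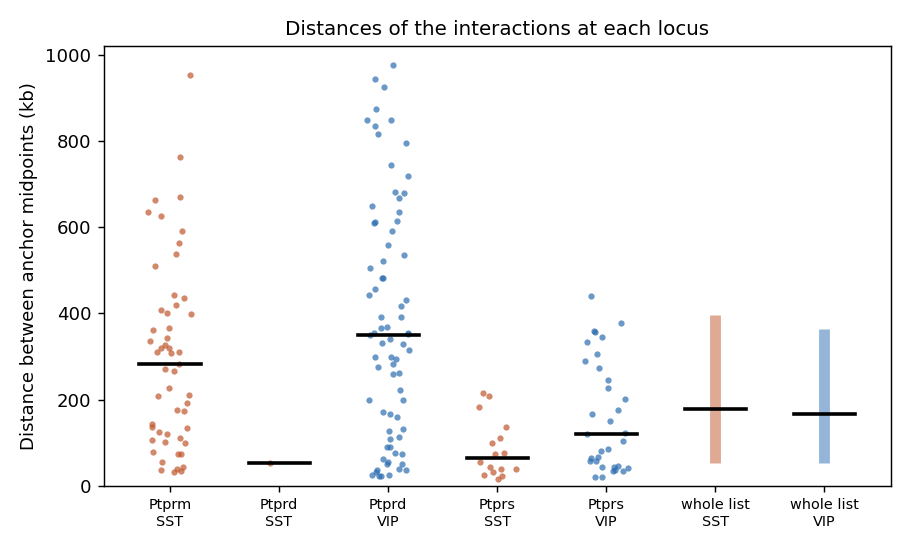
Distance in kb between the anchor midpoints of each member interaction (points), by locus and list, with the median as a black bar; the last columns show the median and the range from the first to the third quartile of each whole list. Medians were 283 kb at Ptprm in SST and 349 kb at Ptprd in VIP, with 64.0 kb for SST and 121 kb for VIP at Ptprs.

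The median distance was highest at Ptprd, though its interval overlapped that of Ptprm. Links that share an anchor are not independent, so these intervals are no test of a locus against its list. The Ptprd median in VIP, 349 kb (275 to 431), stood above that of the whole VIP list, 167 kb. The Ptprm median of 283 kb was also above the SST list median of 178 kb, but its interval of 173 to 343 kb includes that value. At Ptprs the median was 64.0 kb for SST (31.4 to 137) and 121 kb for VIP (57.6 to 227). Those intervals overlap, and the VIP interval includes the median of the whole VIP list, whereas the SST median lies below that of the whole SST list. Interactions above 500 kb made up 18.9% at Ptprm and 32.0% at Ptprd, against 15.6% of all SST and 13.2% of all VIP interactions, and there were 0 at Ptprs in either list. The Ptprs anchors span less than 1 Mb in each list. The windows differ in length, which limits the distances between anchors that both lie inside a window. A member with an anchor outside is not limited in this way, and the longest such member at Ptprs was 441 kb.

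The share of anchor pairs that were linked set the long contacts of Ptprm and Ptprd beside those of the whole lists. Pairs were counted among the anchors that overlapped a window and lay within 1 Mb of each other. The windows were chosen by counts of these same interactions, and pairs share anchors. The shares are therefore descriptions, and nothing is read from their difference to the whole lists. At Ptprm 51 of 164 pairs were linked in SST, 31.1% (24.1 to 38.8%), and at Ptprd 75 of 305 in VIP, 24.6% (19.9 to 29.8%), while the whole lists had 20.5% and 22.1%. Up to 200 kb the values were 38.0% (24.7 to 52.8%) at Ptprm and 26.6% (18.0 to 36.7%) at Ptprd, against 31.1% and 32.8% in the whole lists. Above 500 kb they were 23.3% (11.8 to 38.6%) and 23.5% (15.7 to 33.0%), against 9.25% and 8.92%. Linkage at Ptprd thus differed little between the distance classes, with 23.9% (16.2 to 33.0%) at 200 to 500 kb. At Ptprs, where all pairs lay within 200 kb, 12 of 21 pairs were linked in SST, 57.1% (34.0 to 78.2%), and 14 of 45 in VIP, 31.1% (18.2 to 46.6%). Merging anchors within 5 kb left few pairs, of which 7 of 10 were linked in SST (70.0%) and 4 of 6 in VIP (66.7%). The gap was not seen in that setting, and so few pairs cannot say what it depended on.

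**Figure D4:**
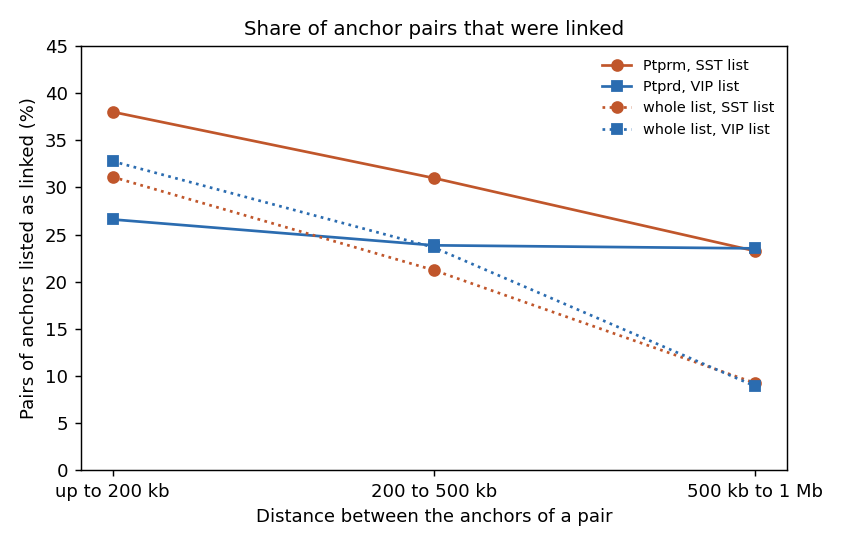
Percentage of anchor pairs listed as linked, by the distance between the anchors, for Ptprm in SST and Ptprd in VIP (solid lines) and for all pairs of each whole list (dotted lines). Above 500 kb the loci stand at 23.3% and 23.5% and the whole lists at 9.25% and 8.92%. The loci were chosen by counts of these interactions.

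A further measure was how far the links closed on each other. A path of 2 links through a shared anchor is closed when its outer anchors are linked as well. At Ptprm 55.3% of 385 such paths were closed and at Ptprd 48.1% of 723, which made 71 and 116 triangles. Over the whole lists 37.6% of paths were closed in SST and 39.8% in VIP. The links are those whose counts chose the loci, so nothing is read from these differences. At Ptprs 37.5% of 64 paths were closed in SST and 12.9% of 302 in VIP. The membership rule lowers the last value, because 14 of the 24 VIP anchors lay outside the window and links between such anchors were not members. With the 6 listed links of that kind added, 19.0% of 331 VIP paths were closed. Among the anchors inside the window 38.9% of 54 VIP and 56.8% of 37 SST paths were closed. Leaving out contacts that left the window thus raised the value in each list, and VIP stayed below SST. Both settings were added after seeing the data. Of the 24 VIP anchors, 12 had no link apart from that to the 57.6 kb anchor when the added links were counted.

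Busy anchors were wide at every locus. Anchors with 10 or more interactions numbered 3 of 21 at Ptprm and 6 of 27 at Ptprd in the list that held the contacts, and 1 of 24 at Ptprs in VIP, against 4.43% of SST and 4.27% of VIP anchors overall. Across the anchors of a locus, the Spearman correlation of width with the number of member interactions was 0.83 at Ptprm (n = 21), 0.86 at Ptprd in VIP (n = 27), and 0.80 and 0.63 at Ptprs in SST (n = 10) and VIP (n = 24). It was 0.62 over all SST and 0.63 over all VIP anchors. These are descriptions across anchors, which share links and a list and are not replicates. The loci were also chosen by counts of these same links. Median anchor width was 15.4 kb at Ptprm and 16.9 kb at Ptprd in VIP, above the 11.8 and 12.4 kb of the whole lists, and 10.5 and 9.95 kb at Ptprs in SST and VIP. The part of width in the number of links was not tested.

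**Figure D5:**
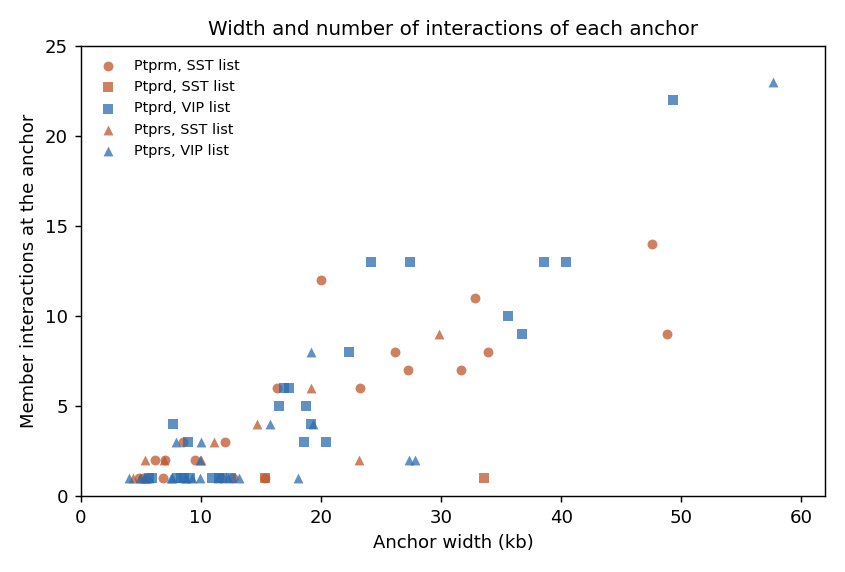
Width in kb and number of member interactions of each anchor, by locus (marker shape) and list (colour). The widest anchor, 57.6 kb at Ptprs in VIP, has 23 interactions, and the 49.3 kb anchor at Ptprd in VIP has 22.

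Neighbouring anchors lie close together at these loci, so the number of interactions depends on how a stretch was divided. When anchors within 5 kb of each other were merged, Ptprm kept 40 SST interactions among 16 anchors, and Ptprd kept 42 VIP interactions among 20. Ptprs had 19 in VIP and 11 in SST. The busiest Ptprm anchor then had 11 interactions and the busiest Ptprd anchor 15, at the same positions as before. At Ptprs in VIP the busiest merged anchor ran from 56474570 to 56569830 with 14 interactions. Anchors covered 28.5% of the Ptprm window in SST, 15.7% of the Ptprd window in VIP, and 48.6% and 76.9% of the Ptprs window in SST and VIP.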

How the data were processed

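The deposited lists have 6 columns without a header, the chromosome, start and end of each anchor in bp, and give no strength for an interaction. HiC-Pro and build mm9 are named in the submitters' processing notes; the calling of interactions and making of anchors are, in the sources used here, not given. Coordinates are printed as the authors deposited them. Members were taken by overlap with the locus windows, counts were scaled to 1000 interactions of a list, and an interaction was shared when both anchors overlapped those of an interaction in the other list by at least 1 bp. Named anchors were the 3 with the most interactions per locus and list (ties included) and those of the longest and shortest interaction. The windows and rules were chosen with earlier results of these data known. The related phosphatase and partner genes and the cell type markers that had been listed were not analysed here, as gene positions in mm9 were not used. Alternatives changed the membership rule, window bounds, distance limit, sharing rule and anchor merging. The overlap and pair counts were tested on simulated data. In the overlap test no anchor was shared by several links of a list, unlike at these loci, so it shows only that planted matches were counted. Computations used Python 3.11.15 with scipy 1.17.1, pandas 2.3.3 and networkx 3.6.1.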

Additional observations from a re-analysis of the deposited data

How the results depend on the processing

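The difference in interactions per 1000 (SST minus VIP) kept its sign at Ptprm, Ptprd and Ptprs under all alternatives run. At Ptprm and Ptprd this was largely set in advance, since the other list held 0 and 1 interactions. The difference went from -11.0 to -6.75 at Ptprd with interactions of up to 200 kb, which leaves out longer ones by construction. At Ptprs it went from -2.97 to -0.630 when both anchors had to lie in the window. That last setting also took the median distance at Ptprs in VIP from 121 to 43.4 kb, since contacts leaving the window drop out. Identical anchors left 0% shared at Ptprs (SST and VIP) and at Ptprd (SST and VIP), and anchors within 10 kb gave 93.8% for SST and 51.5% for VIP at Ptprs and 4.00% for VIP at Ptprd. Measured between inner edges, the single SST interaction at Ptprd spanned 27.8 kb. Merging anchors within 5 kb, which leaves fewer pairs, gave 43.2% of pairs linked at Ptprm, and 66.7% in VIP and 70.0% in SST at Ptprs. Paths closed at Ptprs went from 12.9% to 19.0% in VIP with links outside the window, and to 38.9% in VIP and 56.8% in SST inside it. The other values stayed within their counting intervals. The merging of anchors across lists and the settings for paths were added after seeing the data. No paired analysis was possible because the lists carry no values by replicate, and for the same reason none was run without a replicate.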
